A study of Mus musculus with 2 samples.

Results

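The comparison set 336 somite cells with Uncx and no Tbx18 RNA against 271 somite cells with Tbx18 and no Uncx RNA. These 607 cells were chosen from 19550 cells that passed the depth and mitochondrial filters, out of 48694 barcodes in the whole series. They came from mouse embryos labelled C57BL/6J wild type at embryonic day 8.5, whose caudal tissue was pooled, dissociated and loaded for droplet sequencing of transcript 5′ ends in 2 libraries, called replicate 1 and replicate 2 here. The labels name no mutation and no treatment in either library, so the comparison is between cells of the same libraries. How many embryos were pooled is not stated in the labels.

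A cell entered the comparison if it had at least 3 unique molecular identifiers (UMIs, each counting 1 captured RNA molecule) of Tcf15 and Meox1 together and none of Msgn1. Tcf15 (paraxis) and Meox1 are transcription factors of formed somites, and Msgn1 is a transcription factor of the unsegmented mesoderm behind them. Among the 1657 cells that met this gate, the Uncx-only class held cells with at least 1 Uncx UMI and 0 Tbx18 UMIs, and the Tbx18-only class the converse. Replicate 1 gave 162 Uncx-only and 153 Tbx18-only cells, and replicate 2 gave 174 Uncx-only and 118 Tbx18-only cells. The 5 genes of the rule are given below as a description, and no test result is given for them. The 2 libraries shared 761 barcodes, of which 0 belonged to these 607 cells.

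Somites are paired blocks of mesoderm that bud off one after another from the presomitic mesoderm, and each is divided into a rostral and a caudal compartment. The compartments are set up at the anterior end of the presomitic mesoderm, where Mesp2, a transcription factor, promotes rostral fate and restrains Notch signalling, while Notch signalling through the ligand Dll1 goes with caudal fate. Uncx, a homeodomain factor, is then a mark of caudal compartments and is needed for them, and Tbx18, a T-box factor, is a mark of rostral compartments and maintains them. Neural crest cells and motor axons later pass through the rostral compartments and avoid the caudal ones, where ephrins and other guidance cues act as barriers. The dissociated cells carry no record of their place in a segment, so the classes are called by their RNA.

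The promoters of both defining genes are shown because they belong to the factors that name the classes, and those of Cer1 and Epha4 because these genes were among the ones with the lowest level in Uncx-only relative to Tbx18-only cells. Cer1 and Epha4 also each held a motif that could be marked. Pcdh8, the lowest of the named genes, is not shown, and its promoter window held none of the motifs searched. Each stretch has 80 bases, is written 5′ to 3′ on the gene's strand, and comes from RefSeq on build GRCm38.p6. Capitals mark TAATTA, a homeodomain core, in Uncx and Cer1, and TGGGAA, the core of the site of the Notch effector Rbpj, or its reverse complement, in Tbx18 and Epha4. The Uncx stretch lies at chr5:139543818-139543897 on the plus strand, the Tbx18 stretch at chr9:87731261-87731340 on the minus strand, the Cer1 stretch at chr4:82885299-82885378 on the minus strand and the Epha4 stretch at chr1:77515246-77515325 on the minus strand.
Uncx: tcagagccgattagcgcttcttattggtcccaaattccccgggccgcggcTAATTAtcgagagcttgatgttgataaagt
Tbx18: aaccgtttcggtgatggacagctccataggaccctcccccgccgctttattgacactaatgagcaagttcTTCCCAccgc
Cer1: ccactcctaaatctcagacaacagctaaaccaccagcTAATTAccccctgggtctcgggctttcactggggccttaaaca
Epha4: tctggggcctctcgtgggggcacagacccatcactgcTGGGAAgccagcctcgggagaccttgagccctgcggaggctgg
The marked site began 30 bases before the gene start in Uncx, 10 in Tbx18, 190 in Cer1 and 200 in Epha4. All 32851 mouse windows that run from 250 bases before to 50 bases after a gene start were searched on both strands for these motifs, for TCACACCT, a T-box half-site, and for CANNTG, the E-box of basic helix-loop-helix factors. TAATTA was in 5.29% of the windows, TCACACCT in 1.28%, TGGGAA in 25.6% and CANNTG in 72.3% of them. No motif contains another, but a TCACACCT followed by G overlaps a CANNTG. A match is a string of letters and not a measured site.

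The levels of the gate genes describe how the classes differ in depth of the mark. Summed over the class, Uncx was at 223.8 CPM (UMIs per 1000000 of that class and library) in replicate 1 and 240.8 CPM in replicate 2 in Uncx-only cells, from 738 and 739 UMIs, and it is at 0 in Tbx18-only cells by the rule. Tbx18 was at 71.5 and 88.5 CPM in Tbx18-only cells, from 253 and 187 UMIs, and at 0 in Uncx-only cells by the rule. Uncx was thus the more strongly captured of the 2 RNAs, with 4 or more Uncx UMIs in 76 and 79 Uncx-only cells and up to 18 and 20 in a single cell. Only 8 and 6 Tbx18-only cells had 4 or more Tbx18 UMIs, with at most 6 and 4 in a cell, and 95 and 71 of them rested on 1 Tbx18 UMI, against 38 and 48 Uncx-only cells that rested on 1 Uncx UMI. Tcf15 was at 982.3 and 795.8 CPM in Uncx-only cells and at 852.2 and 906.3 CPM in Tbx18-only cells, and Meox1 was at 664.3 and 841.4 CPM in Uncx-only cells and at 600.4 and 695.3 CPM in Tbx18-only cells.

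Uncx-only cells made up 18.2% of the somite-gated cells in replicate 1 (exact 95% interval 15.7 to 20.9%) and 22.7% in replicate 2 (19.7 to 25.8%). Tbx18-only cells made up 17.2% (14.8 to 19.9%) and 15.4% (12.9 to 18.1%). Cells with both RNAs were few, 14 and 25, where independent detection would give 33.1 and 37.1, an odds ratio of 0.316 and 0.549. The remaining 560 and 451 cells had neither RNA, so a cell without an Uncx or Tbx18 UMI is not shown to lack the gene. These intervals cover counting error only.

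Both RNAs were rare outside the somite gate, where Uncx was at 0.5 and 1.0 CPM and Tbx18 at 0.4 and 0.7 CPM. With every cell thinned at random to 12000 UMIs, Uncx was seen in 16.7% and 23.9% of the somite-gated cells and in 0 of 260 and 0 of 135 endothelium-gated cells (upper 95% limits 1.41% and 2.70%), which held at least 2 Kdr and 1 Cdh5 UMIs with no Tcf15 or Meox1 and should lack it. Tbx18 was seen in 12.8% and 17.2% of the thinned somite-gated cells and in 0.385% and 0.741% of the endothelium-gated ones. Before thinning, the median was 20095 and 15858.5 UMIs in somite-gated cells and 23783.5 and 14356.5 UMIs in endothelium-gated cells, and thinning left out 160 and 165 somite-gated cells as too shallow. Without thinning, Uncx was in 19.8% and 25.9% of somite-gated cells and 0 of 280 and 0 of 200 endothelium-gated cells, and Tbx18 was in 18.8% and 18.6% of somite-gated cells and in 0.357% and 0.5% of endothelium-gated cells. Cells just inside the somite gate, with 3 UMIs of Tcf15 and Meox1 together, numbered 100 and 41 and held Uncx in 3% and 7.32% and Tbx18 in 4% and 2.44%. Cells just outside it, with 2 such UMIs, numbered 236 and 139 and held Uncx in 1.27% and 1.44% and Tbx18 in 0.424% and 0.719%.

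The somite label held for both classes on genes the rule did not use. Foxc2, a forkhead factor of paraxial mesoderm, was at 350.8 and 353.2 CPM in Uncx-only cells and at 354.3 and 402.5 CPM in Tbx18-only cells, against 15.1 and 12.2 CPM in the cells outside the gate. Meox2, a homeobox factor of somites, was at 40.3 and 47.3 CPM in Uncx-only cells and 44.6 and 62.9 CPM in Tbx18-only cells, against 0.5 and 0.7 CPM outside. Neither gene passed the test between the classes, with log2 fold changes of -0.10 for Foxc2 and -0.28 for Meox2.

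The classes had a similar depth. The median was 19932.5 and 17042 UMIs per Uncx-only cell and 21616 and 16774 UMIs per Tbx18-only cell. The sums held 3298337 and 3068758 UMIs in Uncx-only cells and 3539121 and 2114096 UMIs in Tbx18-only cells. Scrublet, a doublet caller, marked 18.5% and 3.45% of the Uncx-only cells and 9.80% and 2.54% of the Tbx18-only cells, and those cells were kept. Cells with a UMI of Tbx6, Mesp1, Mesp2, Ripply2 or Hes7 made up 31.5% and 36.8% of Uncx-only cells and 36.6% and 34.7% of Tbx18-only cells. These are genes of the presomitic mesoderm or its forming segments. Such cells are called segment-forming cells below, a name for that UMI only and not a measured place. Hes7 was at 71.4 and 65.1 CPM outside the somite gate. In Uncx-only cells it was at 23.0 and 27.4 CPM, and in Tbx18-only cells at 18.1 and 17.5 CPM. Cells with at least 2 UMIs of genes that define other tissues made up 31.5% and 39.7% of Uncx-only cells and 45.8% and 38.1% of Tbx18-only cells, and are called other-tissue cells below.

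The class difference was tested on the UMIs summed per class and library, with the library as a block. Of 10453 genes tested, 73 were higher and 83 lower in Uncx-only cells at an adjusted p under 0.05 (edgeR's quasi-likelihood test with Benjamini-Hochberg adjustment). That is 1.49% of all genes tested, 0.698% higher and 0.794% lower. The median log2 fold change over all genes tested was -0.0026. This fit has 4 sums and 1 residual degree of freedom, so its spread for a gene rests largely on what is shared over all genes, and it called Mesp2, Ripply2 and Peg3 although their 2 libraries moved in opposite directions. A fit that also held the cells with both RNAs and the cells with neither called 59 of 10948 genes, 0.539%, of which 24 were higher and 35 lower in Uncx-only cells, and all 59 were among the 156. These 59 are described below as called in both fits, and other genes as called in the 2-class fit only. Both fits hold the same 4 sums of the compared classes, so the second is not independent of the first. A gene carried by 1 cell can pass both, as the embryonic globin genes Hba-x and Hbb-y did. DESeq2 on the same sums called 1 gene, Cer1, and 73 at an unadjusted p under 0.05, and the fit without the library block called 0 genes, and 124 at an unadjusted p under 0.05. The labels number the libraries as replicates and do not say whether their tissue was pooled separately. The p-values and SEs of a gene thus rest largely on a spread shared over all genes, and not on that gene's own 2 libraries. That shared spread comes from these 2 libraries only and may be technical.

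**Figure D1:**
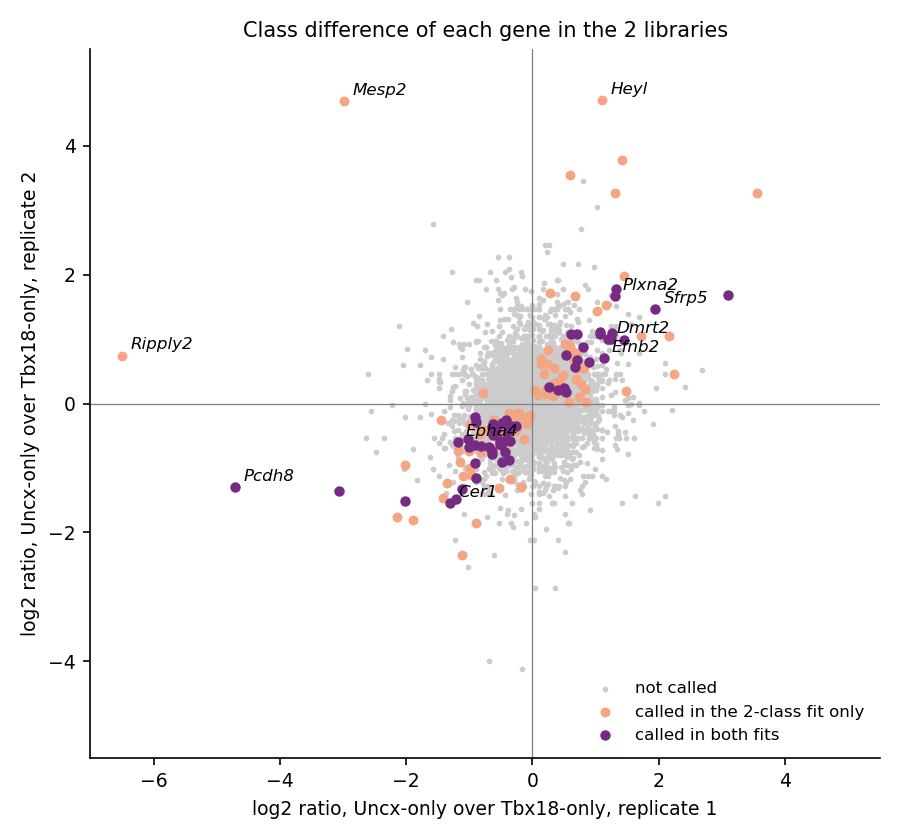
Log2 ratio of CPM, Uncx-only over Tbx18-only, in replicate 1 (horizontal) and replicate 2 (vertical), for each gene tested with a count in all 4 sums. Purple points were called in both fits, orange points in the 2-class fit only and grey points in neither. Mesp2 and Ripply2 lie in opposite-sign quadrants, and Pcdh8 lies at -4.71 and -1.29.

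Dll1, Nrarp and Hey1 of the Notch pathway were higher in Uncx-only cells in both fits, and Dll3 and Notch2 were lower. In this pathway a ligand on one cell cuts loose the receptor's inner part in its neighbour, which then switches on Hes and Hey repressors through Rbpj. Of 18 genes on the Notch list that were tested, 4 were higher in Uncx-only cells, 2 were lower and the others were not called, against 0.698% higher and 0.794% lower over all genes. Their median log2 fold change was 0.26, beside -0.0026 for all genes tested. The 18 included Nkd1, a Wnt pathway gene, which was not called (log2 fold change -0.11). In the 4-class fit, which called 0.219% of all genes higher and 0.32% lower, 3 members were higher and 2 lower.

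The Notch ligand Dll1 was at 53.4 and 76.6 CPM in Uncx-only cells and at 25.4 and 35.5 CPM in Tbx18-only cells. Both Uncx-only values lay above both Tbx18-only values. The log2 fold change was 1.07 ± 0.14 (SE, 2 libraries, adjusted p = 4.82e-12 in the 2-class edgeR fit and 1.96e-05 in the 4-class fit), with 1.07 in replicate 1 and 1.11 in replicate 2. Thinned to 12000 UMIs, 35.4% and 39.9% of Uncx-only cells held a Dll1 UMI, against 19.0% and 15.9% of Tbx18-only cells.

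Dll1 differed outside the segment-forming cells as well. In segment-forming cells it was at 71.1 and 126.7 CPM in Uncx-only cells and at 45.2 and 76.6 CPM in Tbx18-only cells. In the other cells it was at 43.3 and 41.5 CPM in Uncx-only cells and at 11.2 and 11.3 CPM in Tbx18-only cells. Dll1 was thus lower in absolute level there, and without the segment-forming cells its log2 fold change was 1.81 (adjusted p = 2.92e-11, edgeR). By Uncx UMIs, Dll1 was at 74.7 and 121.6 CPM in Uncx-only cells with 1 Uncx UMI, at 44.2 and 58.3 CPM in those with 2 or 3, and at 48.4 and 62.3 CPM in those with 4 or more. Among these groups, the cells with 1 Uncx UMI had the most Dll1 in both libraries. The split is on the gate's own Uncx counts and was not tested.

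Nrarp, a target of Notch that dampens the pathway, was at 56.7 and 80.5 CPM in Uncx-only cells and at 24.0 and 40.2 CPM in Tbx18-only cells. The groups did not overlap, and the log2 fold change was 1.10 ± 0.13 (SE, 2 libraries, adjusted p = 3.87e-13 in the 2-class edgeR fit and 0.00402 in the 4-class fit). Hey1, a repressor induced by Notch, was at 20.6 and 41.1 CPM in Uncx-only cells and at 11.9 and 22.2 CPM in Tbx18-only cells. Its ranges overlapped between libraries, although it was higher in Uncx-only cells within each library, and the log2 fold change was 0.82 ± 0.19 (SE, 2 libraries, adjusted p = 0.00168 and, in the 4-class fit, 0.0361, edgeR). Without segment-forming cells Hey1 was not called, at 0.80 (adjusted p = 0.117, edgeR).

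Heyl, a relative of Hey1, rested on few molecules, at 4.2 and 12.4 CPM in Uncx-only cells and at 2.0 and 0.5 CPM in Tbx18-only cells. The last of these values was 1 UMI. The 2-class edgeR fit gave a log2 fold change of 1.97 ± 0.41 (SE, 2 libraries, adjusted p = 0.000315), and the 4-class fit did not call it (adjusted p = 0.0502). Hes5, another Notch target, was at 6.4 and 8.1 CPM in Uncx-only cells and at 2.5 and 2.8 CPM in Tbx18-only cells, with a log2 fold change of 1.22 ± 0.38 that missed the threshold (adjusted p = 0.0727, edgeR, 2 libraries). Hes1 had a log2 fold change of 0.30 and the clock gene Hes7 of 0.46, neither called.

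A pair of Notch genes ran the other way. Dll3, which lowers ligand activity within the cell that makes it, was at 58.2 and 109.5 CPM in Uncx-only cells and at 90.7 and 140.5 CPM in Tbx18-only cells. It was lower in Uncx-only cells within each library, by -0.49 ± 0.10 on the log2 scale (SE, 2 libraries, adjusted p = 8.17e-05, edgeR), though the libraries' ranges overlapped. Notch2, a receptor, was at 30.9 and 56.7 CPM in Uncx-only cells and at 43.8 and 88.9 CPM in Tbx18-only cells, a log2 fold change of -0.58 ± 0.13 (SE, 2 libraries, adjusted p = 0.000634, edgeR). Both were called in both fits. Without segment-forming cells neither was called, with log2 fold changes of -0.28 for Dll3 and -0.25 for Notch2.

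**Figure D2:**
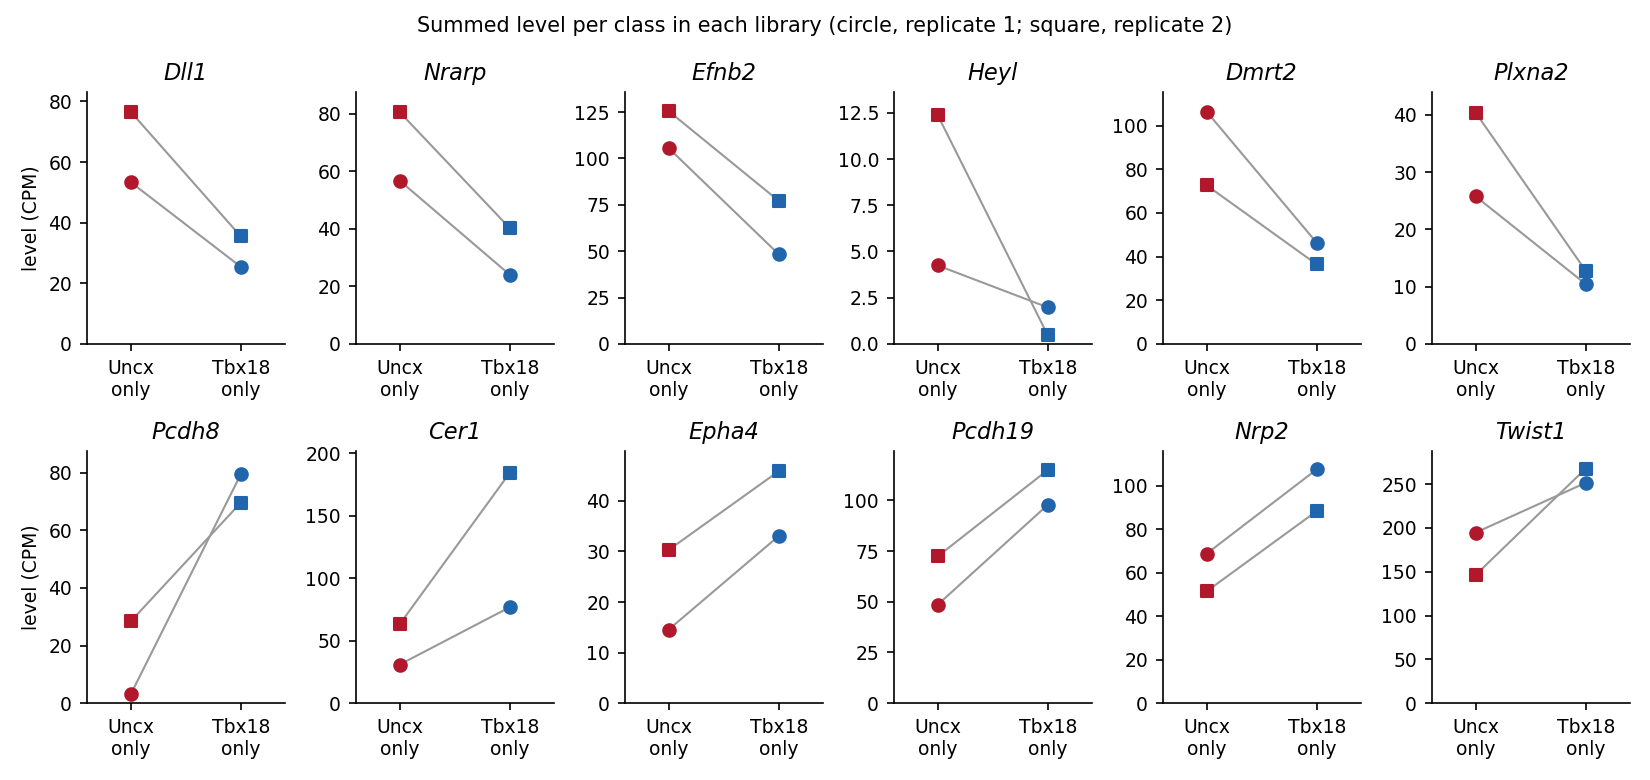
Level (CPM, vertical axis from 0) of 12 genes summed per class, Uncx-only in red on the left and Tbx18-only in blue on the right of each panel, with a circle for replicate 1 and a square for replicate 2 joined within each library. Dll1, Nrarp, Efnb2, Heyl, Dmrt2 and Plxna2 are higher in Uncx-only cells in both libraries, and Pcdh8, Cer1, Epha4, Pcdh19, Nrp2 and Twist1 are lower in both.

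Genes known for caudal and for rostral compartments were then read as lists. Of the 4 caudal genes tested other than Uncx, Dll1 and the ephrin Efnb2 were higher in Uncx-only cells and none was lower, with a median log2 fold change of 0.53. The 2-class fit called 0.698% of all genes higher and 0.794% lower, and these shares stand beside every list counted in that fit. Efnb2, a membrane ligand of Eph receptors that repels neural crest and axons, was at 105.5 and 125.5 CPM in Uncx-only cells and at 48.3 and 77.1 CPM in Tbx18-only cells. The groups did not overlap, and the log2 fold change was 0.91 ± 0.10 (SE, 2 libraries, adjusted p = 5.25e-16 in the 2-class edgeR fit and 5.32e-05 in the 4-class fit). The ligand gene Kitl, at 24.0 and 14.7 CPM in Uncx-only cells and 20.9 and 13.7 CPM in Tbx18-only cells, was not called, and neither was Spon1, at 5.8 and 3.9 CPM in Uncx-only cells and 7.3 and 1.4 CPM in Tbx18-only cells.

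Of the 7 rostral genes tested other than Tbx18, Pcdh8, Cer1, Epha4 and Ripply2 were lower in Uncx-only cells and Mesp1 and Mesp2 were higher, against 0.794% lower and 0.698% higher over all genes. The median log2 fold change of the 7 was -0.84. In the 4-class fit, which called 0.32% of all genes lower, Pcdh8, Cer1 and Epha4 were called lower and the other members were not called.

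Cer1, a secreted inhibitor of Nodal, BMP and Wnt ligands, was at 30.9 and 63.2 CPM in Uncx-only cells and at 76.9 and 184.5 CPM in Tbx18-only cells. Every Uncx-only value lay below every Tbx18-only value. The log2 fold change was -1.45 ± 0.11 (SE, 2 libraries, adjusted p = 4.13e-39 in the 2-class edgeR fit and 1.69e-09 in the 4-class fit). Thinned, 16.9% and 25.9% of Uncx-only cells held a Cer1 UMI, against 35.2% and 55.1% of Tbx18-only cells. Cer1 stayed lower outside the segment-forming cells, at 35.2 and 59.3 CPM in Uncx-only cells and 47.7 and 174.3 CPM in Tbx18-only cells, a log2 fold change of -1.14 (adjusted p = 9.52e-14, edgeR).

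Pcdh8 (paraxial protocadherin), a cell adhesion molecule of forming somites, was at 3.0 and 28.4 CPM in Uncx-only cells and at 79.4 and 69.5 CPM in Tbx18-only cells. The groups did not overlap, and the log2 fold change was -2.31 ± 0.15 (SE, 2 libraries, adjusted p = 1.03e-48 in the 2-class edgeR fit and 1.96e-05 in the 4-class fit). The size differed between libraries, at -4.71 in replicate 1 and -1.29 in replicate 2, and 8 of the 10 Uncx-only molecules of replicate 1 came from 1 cell. Most Pcdh8 was in the segment-forming cells, where it was at 0.836 and 66.5 CPM in Uncx-only cells and at 167.2 and 153.2 CPM in Tbx18-only cells. In the other cells it was at 4.28 and 1.66 CPM in Uncx-only cells and at 16.1 and 20.3 CPM in Tbx18-only cells.

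Epha4, an Eph receptor that binds both A-type and B-type ephrins, was at 14.6 and 30.3 CPM in Uncx-only cells and at 33.1 and 45.9 CPM in Tbx18-only cells. Both Uncx-only values lay below both Tbx18-only values. The log2 fold change was -0.84 ± 0.16 (SE, 2 libraries, adjusted p = 7.33e-05 in the 2-class edgeR fit and 0.0163 in the 4-class fit). The difference was in the segment-forming cells, where Epha4 was at 21.7 and 34.8 CPM in Uncx-only cells and at 61.4 and 85.6 CPM in Tbx18-only cells. In the other cells it was at 10.5 and 27.1 CPM in Uncx-only cells and at 12.6 and 22.5 CPM in Tbx18-only cells, and the log2 fold change without segment-forming cells was 0.04 (adjusted p = 0.997, edgeR). The difference between these 2 kinds of cells was not itself tested.

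Mesp1, Mesp2 and Ripply2, transcription factors and a repressor partner of the forming segment, gave no stable picture. Mesp2 was at 1.2 and 36.8 CPM in Uncx-only cells and at 9.6 and 1.4 CPM in Tbx18-only cells, so it was lower in replicate 1 and higher in replicate 2. In replicate 1, 1 cell held 88.2% of the Mesp2 molecules of the Tbx18-only class. Ripply2 was at 0.3 and 16.6 CPM in Uncx-only cells and at 27.4 and 9.9 CPM in Tbx18-only cells, again opposite between libraries. Mesp1 was at 4.2 and 11.1 CPM in Uncx-only cells and at 2.8 and 0.9 CPM in Tbx18-only cells, and was called in the 2-class fit only.

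**Figure D3:**
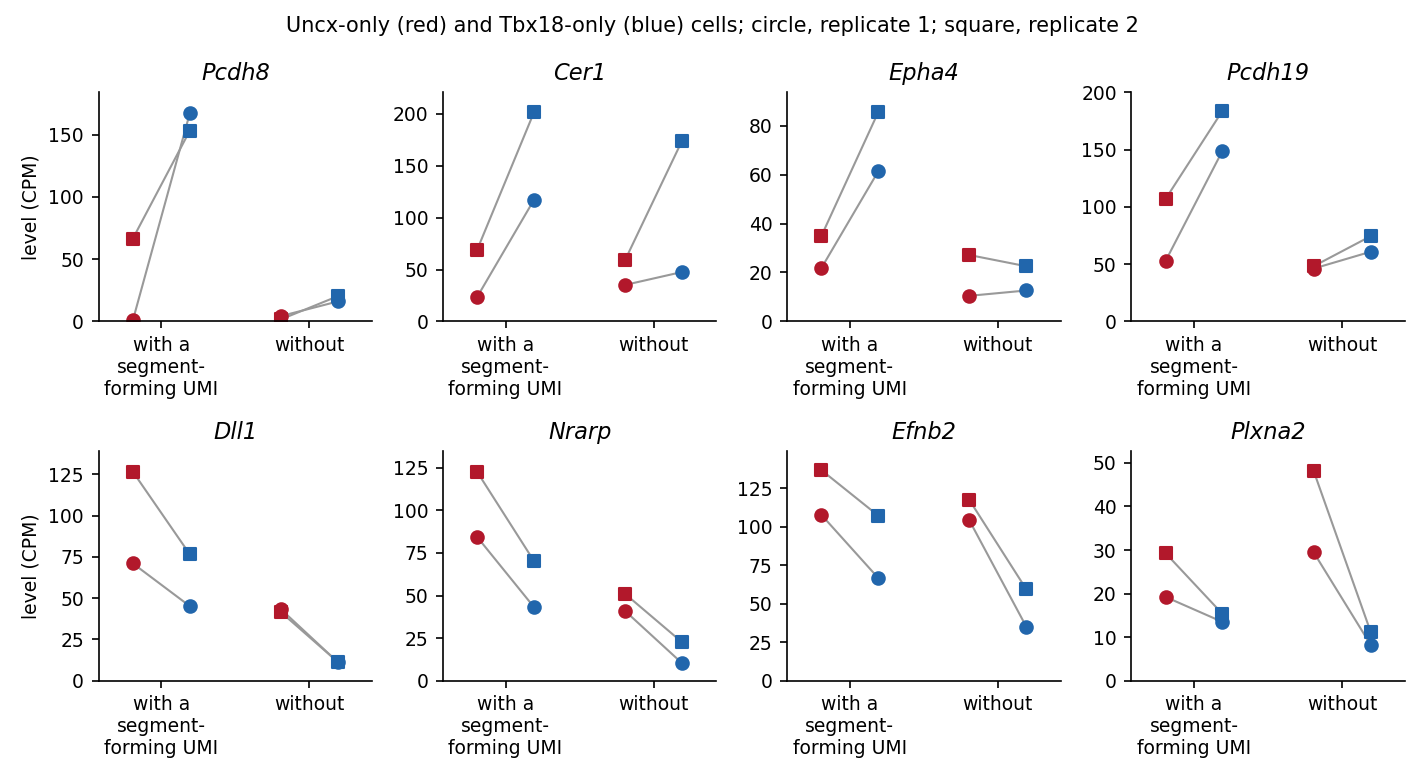
Level (CPM, vertical axis from 0) of 8 genes in cells with a UMI of Tbx6, Mesp1, Mesp2, Ripply2 or Hes7 (left pair of each panel) and in cells without one (right pair), Uncx-only in red left of Tbx18-only in blue, with a circle for replicate 1 and a square for replicate 2. The Epha4 difference is seen in the left pair, at 21.7 and 34.8 against 61.4 and 85.6 CPM, and the Dll1 difference in both pairs.

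Eph receptors and ephrins as a family showed no shared direction. Of 16 members tested, Efnb2 was higher and Epha4 lower in Uncx-only cells in both fits, and the other members were not called, with a median log2 fold change of 0.11. The other ephrin-B genes were lower in level, with Efnb1 at 23.0 and 35.8 CPM in Uncx-only cells and 21.2 and 24.6 CPM in Tbx18-only cells, and Efnb3 at 7.6 and 5.2 CPM in Uncx-only cells and 9.6 and 9.0 CPM in Tbx18-only cells.

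Of 19 axon and neural crest guidance genes tested, Plxna2 and Sema3e were higher and Nrp2 was lower in Uncx-only cells, against 0.698% higher and 0.794% lower over all genes, and the other 16 were not called. All 3 were called in both fits, and the median log2 fold change of the list was 0.18. Plxna2, a plexin that signals for semaphorins, was at 25.8 and 40.4 CPM in Uncx-only cells and at 10.5 and 12.8 CPM in Tbx18-only cells. The groups did not overlap, and the log2 fold change was 1.42 ± 0.20 (SE, 2 libraries, adjusted p = 4.65e-10 in the 2-class edgeR fit and 8.84e-05 in the 4-class fit). Plxna2 was at 18.7 and 21.5 CPM in cells with 1 Uncx UMI, at 21.5 and 42.4 CPM in those with 2 or 3 and at 30.7 and 49.2 CPM in those with 4 or more. Among these groups, Plxna2 was highest in the cells with 4 or more Uncx UMIs in both libraries. This split is on the gate's own Uncx counts and was not tested.

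Nrp2, a neuropilin that binds class 3 semaphorins, was at 68.8 and 51.5 CPM in Uncx-only cells and at 107.7 and 88.5 CPM in Tbx18-only cells. These values did not overlap, and the log2 fold change was -0.69 ± 0.10 (SE, 2 libraries, adjusted p = 1.12e-08 in the 2-class edgeR fit and 0.00114 in the 4-class fit). Without segment-forming cells it was -0.87 (adjusted p = 3.52e-09, edgeR). Sema3e, a secreted semaphorin, was at 12.7 and 13.03 CPM in Uncx-only cells and at 5.1 and 3.8 CPM in Tbx18-only cells, a log2 fold change of 1.37 ± 0.30 (SE, 2 libraries, adjusted p = 0.000784, edgeR). Without segment-forming cells the Sema3e call was lost, at 0.83 (adjusted p = 0.652, edgeR), and without other-tissue cells it had too few counts to be tested. No more than 15.0% of the Sema3e molecules of the Uncx-only class came from a single cell in either library.

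Of 21 adhesion genes tested, none was higher and Pcdh8, Pcdh19 and Cdh11 were lower in Uncx-only cells, against 0.698% higher and 0.794% lower over all genes, with a median log2 fold change of -0.11. In the 4-class fit, which called 0.32% of all genes lower, 2 of the 21 were lower. Pcdh19, a protocadherin related to Pcdh8, was at 48.5 and 72.3 CPM in Uncx-only cells and at 97.8 and 114.9 CPM in Tbx18-only cells, without overlap, a log2 fold change of -0.83 ± 0.10 (SE, 2 libraries, adjusted p = 5.1e-13 in the 2-class edgeR fit and 1.96e-05 in the 4-class fit). Without segment-forming cells the Pcdh19 call was lost, at -0.51 (adjusted p = 0.0696, edgeR). Cdh11, a cadherin of mesenchyme, was called in the 2-class fit only, at -0.42 ± 0.12 (SE, 2 libraries).

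Of 10 sclerotome genes tested, 1 was higher and 1 lower in Uncx-only cells, against 0.698% higher and 0.794% lower over all genes, with a median log2 fold change of -0.15. Twist1, a basic helix-loop-helix factor of mesenchyme, was lower in Uncx-only cells, at 194.6 and 146.3 CPM against 251.5 and 267.7 CPM in Tbx18-only cells. It did not overlap between the classes, and the log2 fold change was -0.59 ± 0.07 (SE, 2 libraries, adjusted p = 8.18e-16 in the 2-class edgeR fit and 0.000414 in the 4-class fit). Fst, which encodes the activin inhibitor follistatin, was at 385.6 and 124.2 CPM in Uncx-only cells and 352.1 and 76.6 CPM in Tbx18-only cells and was called in the 2-class fit only, at 0.27 ± 0.06. Fst differed more between the libraries than between the classes. Foxc1 was not called, at -0.31 ± 0.10 (adjusted p = 0.0596, edgeR, 2 libraries). Pax1, a mark of sclerotome, was at 7.3 and 4.6 CPM in Uncx-only cells and at 1.7 and 12.3 CPM in Tbx18-only cells, with opposite directions in the libraries and no call.

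Among dermomyotome and myotome genes, Dmrt2 was higher and Sim1 was lower in Uncx-only cells. Dmrt2, a factor needed for the patterning of the dermomyotome, was at 106.4 and 72.7 CPM in Uncx-only cells and at 46.3 and 36.4 CPM in Tbx18-only cells. The groups did not overlap, and the log2 fold change was 1.11 ± 0.12 (SE, 2 libraries, adjusted p = 7.09e-19 in the 2-class edgeR fit and 9.6e-05 in the 4-class fit). Dmrt2 was at 61.3 and 58.2 CPM in cells with 1 Uncx UMI, at 93.5 and 46.4 CPM in those with 2 or 3 and at 131.5 and 93.1 CPM in those with 4 or more. This split, too, is on the gate's own Uncx counts and was not tested. Without the segment-forming cells the log2 fold change of Dmrt2 was 1.13. Sim1, with a log2 fold change of -0.59 ± 0.16 (SE, 2 libraries), was called in the 2-class fit only.

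Cells with both Uncx and Tbx18 RNA, 39 in all, are given as values only. In them Dmrt2 was at 77.1 and 103.0 CPM, Efnb2 at 112.7 and 121.4 CPM, Cer1 at 65.2 and 198.6 CPM and Pcdh19 at 94.9 and 130.6 CPM. Cells with neither RNA had more Dll1, at 130.6 and 161.0 CPM, and more Mesp2, at 88.9 and 77.8 CPM, than either class. They also held more segment-forming cells, 46.2% and 52.8%.

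Other genes were named by the size of their difference alone. The rule named the 15 genes at each end with at least 20 CPM in both libraries on the higher side, out of 46 that were eligible on the higher side and 58 on the lower side. Igfbp5, which binds insulin-like growth factors, was at 44.6 and 83.7 CPM in Uncx-only cells and at 18.6 and 39.3 CPM in Tbx18-only cells, a log2 fold change of 1.14 ± 0.14 (SE, 2 libraries, adjusted p = 5.79e-13 in the 2-class edgeR fit and 1.99e-05 in the 4-class fit). Igfbp2, of the same family, had 0.73 ± 0.13 and was called in both fits, but without cells holding other-tissue genes it had 0.16 (adjusted p = 0.953, edgeR). Foxb1, a forkhead factor, had 0.78 ± 0.16, Trp53i11 0.84 ± 0.19 and Npepl1, a peptidase gene, 0.68 ± 0.15 (SE, 2 libraries each), all called in both fits. Trp53i11 lost its call without other-tissue cells (adjusted p = 0.301, edgeR) and without segment-forming cells (adjusted p = 0.116, edgeR), and Igfbp2 also lost it without segment-forming cells, at 0.40 (adjusted p = 0.558, edgeR). Acot7, Plvap, Dach1 and Gadd45g were called in the 2-class fit only, and 1 cell held 67.5% of the Plvap molecules of Uncx-only cells in replicate 1.

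At the other end of the same rule, Myadm was at 23.6 and 22.2 CPM in Uncx-only cells and at 44.6 and 42.1 CPM in Tbx18-only cells, a log2 fold change of -0.90 ± 0.16 (SE, 2 libraries, adjusted p = 2.64e-06 in the 2-class edgeR fit and 0.0103 in the 4-class fit), with close values in the 2 libraries. Foxd2, a forkhead factor, was at 30.9 and 28.0 CPM in Uncx-only cells and 48.0 and 46.8 CPM in Tbx18-only cells, against 0.7 and 1.1 CPM outside the gate. Its antisense neighbour Foxd2os was at 32.4 and 30.6 CPM in Uncx-only cells and 45.2 and 57.2 CPM in Tbx18-only cells. Their log2 fold changes were -0.67 ± 0.15 for Foxd2 and -0.67 ± 0.14 for Foxd2os (SE, 2 libraries each), both called in both fits. Whether the counting used strand is not stated, so reads of these neighbours may not be told apart. Zic2, a zinc finger factor, had -0.68 ± 0.11, Snai1, a repressor of epithelial genes, -0.68 ± 0.13, Adgrl2, an adhesion receptor, -0.77 ± 0.10, Pdlim5 -0.75 ± 0.17 and Zfp608 -0.71 ± 0.16 (SE, 2 libraries each), all called in both fits. Without segment-forming cells Zic2 had -0.35 (adjusted p = 0.50), Zfp608 -0.38 (0.741), Pdlim5 -0.62 (0.334) and Snai1 -0.51 (0.101), so these calls were lost, whereas Myadm, Adgrl2, Foxd2 and Foxd2os were still called (edgeR). Egr1 and Has2, an early response factor and a hyaluronan synthase, were called in the 2-class fit only.

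**Figure D4:**
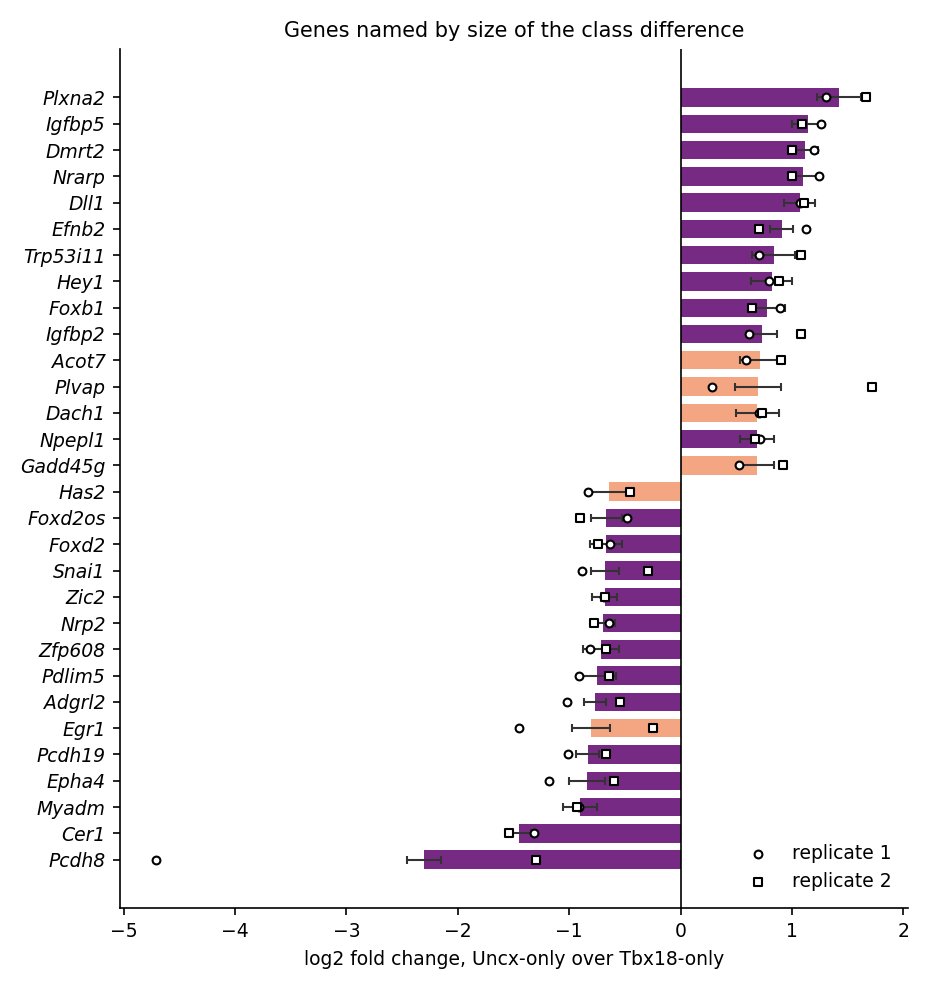
Log2 fold change, Uncx-only over Tbx18-only, of the 30 genes named by size, with bars for the 2-class fit, whiskers for 1 SE, circles for the log2 ratio in replicate 1 and squares for replicate 2. Purple bars were called in both fits and orange bars in the 2-class fit only. The circle of Pcdh8 lies at -4.71 and its square at -1.29.

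Of the 25 Wnt genes on the list that were tested 1 was higher and 1 lower, namely Sfrp5, a secreted Wnt inhibitor, at 24.0 and 3.9 CPM in Uncx-only cells and 6.2 and 1.4 CPM in Tbx18-only cells, and Lef1, a Wnt effector, at 109.4 and 208.2 CPM in Uncx-only cells and 152.6 and 255.9 CPM in Tbx18-only cells. Their log2 fold changes were 1.73 ± 0.30 and -0.38 ± 0.07 (SE, 2 libraries each), both called in both fits. Without segment-forming cells both calls were lost, with 1.22 for Sfrp5 (adjusted p = 0.0508) and -0.18 for Lef1 (adjusted p = 0.741, edgeR). The shares to set beside the Wnt, FGF, BMP and TGF-beta, and Hedgehog counts are 0.698% higher and 0.794% lower over all genes. The Wnt list does not hold Frzb, a secreted Wnt inhibitor, or the ligand gene Wnt16, which were both lower in Uncx-only cells in both fits and are named here after their values were seen. Of 18 FGF genes none was higher, and the receptor Fgfr1, at 98.8 and 96.8 CPM in Uncx-only cells and 141.0 and 149.9 CPM in Tbx18-only cells, and the feedback phosphatase Dusp6 were lower, with log2 fold changes of -0.57 ± 0.09 and -0.51 ± 0.11. Fgfr1 was called in both fits and Dusp6 in the 2-class fit only, and without segment-forming cells Fgfr1 lost its call, at -0.36 (adjusted p = 0.101, edgeR). Of 20 BMP and TGF-beta genes Fst was the one called, and of 12 Hedgehog genes none was.

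Cell cycle genes had no call, and Hox genes 1, where the 2-class fit called 1.49% of all genes and the 4-class fit 0.539%. At those shares, lists of this size would hold few or no calls. None of 16 Hox genes of groups 5 to 13 was called, with a median log2 fold change of 0.10, and of 12 in groups 1 to 4 Hoxd1 was lower in the 2-class fit only. None of 19 S phase genes and none of 22 G2 and M phase genes was called in either fit, with medians of 0.000072 and -0.0023. Summed, the S phase genes were at 3136 and 3554 CPM in Uncx-only cells and 3169 and 3518 CPM in Tbx18-only cells. None of 20 endoplasmic reticulum genes was called, and of 24 matrix genes Has2 was lower in the 2-class fit only.

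Markers of other tissues were present in both classes and some moved with Uncx-only cells. Of 9 endoderm genes 4 were higher in Uncx-only cells (Foxa2, Sox17, Epcam and Krt8) and none was lower in the 2-class fit, against 0.698% higher and 0.794% lower over all genes. None of the endoderm genes was called in the 4-class fit. Epcam and Krt8 were also the 2 genes called higher of 9 surface ectoderm genes tested. Foxa2 rested on 25 UMIs in Uncx-only cells and 2 in Tbx18-only cells. In replicate 1, 1 cell held 58.6% of the Sox17 molecules of Uncx-only cells, and replicate 2 had 3 Sox17 UMIs in Uncx-only cells and 1 in Tbx18-only cells. The whole endoderm list, with genes that were not tested, summed to 508.7 and 131.3 CPM in Uncx-only cells and 406.6 and 111.6 CPM in Tbx18-only cells. Outside the gate it summed to 1618 and 818.9 CPM, and no gene of the list was at 0 in either class. Of 5 notochord genes tested, Noto and Foxa2 were higher in the 2-class fit. The whole notochord list, tested or not, summed to 54.6 and 64.5 CPM in Uncx-only cells and 52.3 and 29.3 CPM in Tbx18-only cells. Chrd and Foxj1 were at 0 in Tbx18-only cells. Single cells carried much of the Noto signal, with 73.3% and 60.0% of the Noto molecules of Uncx-only cells in 1 cell per library.

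Of 12 caudal epiblast genes tested, Cdx4 and Cdx2 were higher and all 12 were above 0 in log2 fold change. The whole list, tested or not, summed to 406.3 and 304.7 CPM in Uncx-only cells and 346.1 and 158.5 CPM in Tbx18-only cells. Cdx4 was called in both fits and Cdx2 in the 2-class fit only, which called 0.698% of all genes higher. Without cells that held 2 or more UMIs of other-tissue genes, 2 of the 9 endoderm, 2 of the 9 surface ectoderm, 2 of the 5 notochord and 9 of the 12 caudal epiblast genes still had enough counts to be tested, and none of those was called. Epcam, Cldn6 and Foxa2 were themselves part of that filter. Without the cells marked as doublets, 5 of 11 caudal epiblast genes tested were higher in Uncx-only cells, with a median log2 fold change of 0.77, and 3 of 8 endoderm genes, with a median of 0.71. In that setting 67 of all 10105 genes tested were higher.

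Calls outside these marker lists were in part lost without the other-tissue cells. That setting held fewer cells, 216 Uncx-only and 156 Tbx18-only. Of the named genes called in both fits, Notch2 (log2 fold change -0.46, adjusted p = 0.179), Trp53i11 (0.64, 0.301), Igfbp2 (0.16, 0.953), Foxd2 (-0.49, 0.216), Foxd2os (-0.54, 0.0867), Snai1 (-0.57, 0.0513), Pdlim5 (-0.66, 0.0986), Zfp608 (-0.60, 0.179) and Cdx4 (0.35, 0.807) were no longer called (edgeR). All of them kept their direction. Dll1, Nrarp, Efnb2, Dmrt2, Plxna2, Cer1, Pcdh8, Epha4, Pcdh19, Nrp2 and Twist1 were among those still called. The part of such cells in the differences was not tested beyond these values.

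The embryonic globins Hba-x and Hbb-y were also called, in both fits. In replicate 2, 1 cell per class held 98.1% and 98.0% of their Uncx-only molecules and 97.9% and 94.1% of their Tbx18-only molecules. The globin calls thus say little about the classes. In replicate 1 the globins summed to 0 or 1 molecule per class. None of the genes tested for intermediate mesoderm (7), lateral plate (11), endothelium (6), neural tube (5) or neural crest (2) was called in either fit. The fits called 1.49% and 0.539% of all genes, so lists this short would hold few or no calls at those shares. The next levels are sums over each whole list, with genes that were not tested. Lateral plate genes ranged over libraries from 191.0 to 250.7 CPM in Uncx-only cells and from 189.7 to 273.5 CPM in Tbx18-only cells. Neural genes ranged from 41.8 to 63.5 CPM and from 38.8 to 45.2 CPM in the same classes.

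The promoters of the named genes called in both fits were searched for the motifs shown at the start. Of these 17 higher and 18 lower genes, 14 and 14 had a RefSeq window, and the first window listed was used for each. TAATTA was in 0 of 14 windows of higher genes and 1 of 14 of lower genes, that of Cer1. TGGGAA was in 1 of 14 windows of higher genes, that of Hba-x, and in 3 of 14 of lower genes, those of Epha4, Lef1 and Myadm, beside 25.6% of all windows. CANNTG was in 10 of 14 and 9 of 14, beside 72.3% of all windows, and TCACACCT was in none. The windows of Dll1 and Nrarp thus held no TGGGAA, which says only that these letters are absent from them.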

How the data were processed

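Caudal tissue of day 8.5 embryos was profiled in 2 droplet libraries of 30449 and 18245 barcodes, with 295866003 and 150964773 UMIs. The authors deposited whole-number UMI counts per gene and barcode. Per the submitters' processing notes they came from Cell Ranger 6.1.1 on build mm10, and every deposited barcode had at least 500 UMIs. The members and gene lists were chosen with earlier results of these data known.

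Barcodes were kept with at least 2000 UMIs, 1000 genes and 0.3 to 10% mitochondrial UMIs. Scrublet (in Scanpy 1.11.5) was run on the barcodes that met these limits other than the 0.3% floor. It marked 6.69% and 1.94% of them, which were kept except in 1 alternative. The expected rate given to it, 0.8% per 1000 barcodes, was 24.4% and 14.6%, so doublets may remain in that alternative. Counts were summed per class and library and tested with edgeR 4.0.16 (TMM, filterByExpr, prior count 2, glmQLFit and glmQLFTest) with the library as a block, because both classes of a pair came from the same library, and Benjamini-Hochberg adjustment over all genes tested. The SE is the size of the log2 fold change divided by the square root of F, so it too rests largely on the spread shared over all genes. Uncx, Tbx18, Tcf15, Meox1 and Msgn1 set the gate and were left out of the counts of genes and the lists. Those that passed the filter were still in the fits and the adjustment. Genes sharing sequence with near-identical copies were counted as the authors counted them, so such copies are uncertain.

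Named genes were the 15 called genes at each end with the same direction in both libraries and at least 20 CPM in both libraries on the higher side, every tested member of the caudal, rostral, Notch, Eph and ephrin and sclerotome lists, and up to 4 called members of each other list. Results for some genes under this rule are not reported here. DESeq2 1.42.0, other gates, other filters and left-out libraries were alternatives. The pipeline was tested on simulated data. Exact Clopper-Pearson intervals (95%) cover counting error only, since a UMI count does not cover the spread between embryos.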

Additional observations from a re-analysis of the deposited data

Results flagged for a closer look

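The deposited gene list holds an eGFP entry, which none of the comparisons above used. Over all barcodes it had 1295 UMIs in replicate 1 and 548 UMIs in replicate 2, of which 61 and 30 were in somite-gated cells. The signal drew attention because the labels give both libraries as wild type. There was no control library to set it against, and its source was not tested.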

How the results depend on the processing

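The 2-class fit called 156 genes. The count was 59 with all 4 gate classes in the fit, 86 without segment-forming cells, 1 with DESeq2 and 0 with no replicate block, and between 107 and 188 under the other alternatives. The fit could not be run without a library, since no residual degree of freedom would be left. The Uncx-only class of 336 cells fell to 221 without segment-forming cells and 216 without other-tissue cells. The Tbx18-only class of 271 cells fell to 174 and 156 in those settings, and to 105 with at least 2 UMIs of the gate gene. Of 67 named genes tested, calls were lost with the direction kept for 59 with no replicate block, 58 with DESeq2, 22 with all 4 classes in the fit, 24 without segment-forming cells and 15 without other-tissue cells, where some of the 67 no longer passed the filter. Reversed directions were as follows. Plvap had a log2 fold change of -0.0915 with at least 6 UMIs of Tcf15 and Meox1 and -0.27 with the gate read in thinned cells. Without segment-forming cells Epha4 had 0.037, Hoxd1 0.11 and Epcam -0.10, and without other-tissue cells Krt8 had -0.15. Mesp2 had -0.10 with the gate read in thinned cells, and between -2.99 and 4.70 when either library was left out. Ripply2 had between -6.50 and 0.74 when either library was left out. Pax1, near 0 in the 2-class fit, had -0.095 with no replicate block, -0.014 with at least 6 UMIs, -0.15 with no mitochondrial floor, -0.058 without doublets and -0.17 with the gate read in thinned cells. The cause was not tested. Depth limits the genes under about 10 CPM, such as Heyl and Noto, where a class total can rest on 1 UMI.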

Other observations

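Genes outside the lists and the naming rule were also called in both fits, and the following were chosen after their values were seen. Mycn, a Myc-family transcription factor, was at 128.6 and 128.7 CPM in Uncx-only cells and at 80.8 and 87.0 CPM in Tbx18-only cells, a log2 fold change of 0.62 ± 0.09 (SE, 2 libraries, adjusted p = 1.26e-08, edgeR). The values did not overlap between the classes. Tmprss2, a serine protease gene of epithelia, was at 9.7 and 4.6 CPM in Uncx-only cells and at 1.1 and 1.4 CPM in Tbx18-only cells.

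On the Tbx18-only side, Ptn, the secreted growth factor pleiotrophin, was at 301.7 and 209.9 CPM in Uncx-only cells and at 395.9 and 281.9 CPM in Tbx18-only cells, a log2 fold change of -0.41 ± 0.06 (SE, 2 libraries, adjusted p = 3.65e-10, edgeR). Frzb, a secreted Wnt inhibitor, was at 40.3 and 44.0 CPM in Uncx-only cells and at 62.2 and 61.5 CPM in Tbx18-only cells, without overlap. Myocd, a coactivator of smooth and cardiac muscle genes, was at 1.8 and 12.4 CPM in Uncx-only cells and at 7.3 and 35.5 CPM in Tbx18-only cells, and the ligand gene Wnt16 at 5.8 and 15.3 CPM in Uncx-only cells and at 10.7 and 34.1 CPM in Tbx18-only cells. Both were lower in Uncx-only cells within each library. Meis2, a Hox cofactor, was at 173.1 and 218.0 CPM in Uncx-only cells and at 232.3 and 259.7 CPM in Tbx18-only cells, again without overlap.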
